A study of Mus musculus with 2 samples.

Results

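Binding of lysine-specific demethylase 1 (LSD1), a chromatin enzyme that demethylates lysines of histone tails, was examined at 10 genes of glucocorticoid supply, sensing and response in mouse brown adipocytes. The genes were chosen by name, for their place in the pathway and with earlier results of these data known. They are Hsd11b1, H6pd and Srd5a1 for steroid conversion, Nr3c1 and Nr3c2 for the receptors, and Fkbp5, Per1, Zbtb16, Sgk1 and Dusp1 for the response. They are 10 of 21853 protein-coding genes, and the windows from 50 kb upstream to 50 kb past them held 155 of the 59175 peaks of the list. The data are 1 peak list from 1 LSD1 immunoprecipitate made with a homemade antibody, and the labels also list 1 input DNA library made without antibody. Both came from primary brown adipocytes, fat cells that burn lipid for heat, of the C57BL/6 N strain with the genotype given as Control, passaged 2 to 3 times. The cells had spent 10 days in adipogenic medium and were fixed for 5 min. The inducing mixture held dexamethasone and rosiglitazone at 1 µM each, insulin at 850 nM, isobutylmethylxanthine at 500 µM, indomethacin at 125 nM and T3 at 1 nM, in cells kept with 20% fetal bovine serum. Dexamethasone is a synthetic glucocorticoid, so the cells had met a ligand of the receptor, and whether it was still present at fixation is not given in the labels. No other treatment or genotype is compared here and the list has no replicates, so every value below is a description of 1 library without a test. Each peak carries the authors' own score, and its scale is unknown here. It ran from 50.1 to 3224 with a median of 111, and it serves only to rank peaks within this list.

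Glucocorticoids act inside the cell, where Hsd11b1 encodes the reductase of the endoplasmic reticulum that regenerates active corticosterone in mouse from its inert keto form, with NADPH made by the H6pd product. The hormone binds the glucocorticoid receptor (Nr3c1) or the mineralocorticoid receptor (Nr3c2), and the bound receptor enters the nucleus and binds DNA at palindromic elements near its target genes. In fat, the pathway is known for promoting differentiation of adipocytes, and LSD1 has been studied in brown fat as a regulator of Hsd11b1.

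All 10 genes had an LSD1 peak within 1 kb of one of their protein-coding starts, against 55.8% of all protein-coding genes. Averaged over the classes of promoter CpG content to which the 10 genes belong, 80.2% of genes were occupied. The count rests on the use of every annotated start: with the 5′ end of the gene record as the only start 7 of 10 had a peak, against 52.3% of all genes. Hsd11b1, Nr3c1 and Sgk1 then had none and Dusp1 scored 231. With every start used, for 9 of the 10 that peak lay in the tenth of peaks with the highest scores (391 and above), which was true of 22.8% of all genes, and the same 9 passed the list median, against 47.3% of all genes. Sgk1 had the highest promoter score at 1772, followed by Dusp1 at 1275, Fkbp5 at 1161, Nr3c1 at 1059.7 and Zbtb16 at 1012. Per1 stood at 654, and Nr3c2 at 421, Srd5a1 at 397 and H6pd at 395 lay close together. Hsd11b1 was alone at the low end, with 89.1. The 5 response genes thus covered 654 to 1772, and the other 5 covered 89.1 to 1059.7, with Nr3c1 inside the range of the response genes. The median over the 10 genes was 833, against 315 over the 12199 occupied genes. Each score is the highest over all annotated starts of a gene, and the comparison was not matched for their number. The 10 genes had from 1 (Srd5a1) to 9 (Nr3c1) starts, and all 21853 protein-coding genes had 54361. When all genes are split into 10 equal classes of promoter CpG content, the median score of occupied genes ranged from 99.6 in the lowest class to 437 in the highest, so each gene is also set against its own class. The class median was 371 for Sgk1 and H6pd, 437 for Dusp1, Fkbp5 and Nr3c1, 336 for Zbtb16, Nr3c2 and Srd5a1, and 279.5 for Per1, and each of these 9 genes lay above its own. The Hsd11b1 score was below the 139.6 of its class, where 15.7% of genes had any promoter peak. The start with the highest CpG ratio sets the class, and the highest peak may lie at another start. For Hsd11b1 that ratio was 0.305 at a start without a peak, against 0.184 at the start its peak covered. For Fkbp5 it was 1.04 at an internal start, against 0.331 at the start with the score of 1161.

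**Figure D1:**
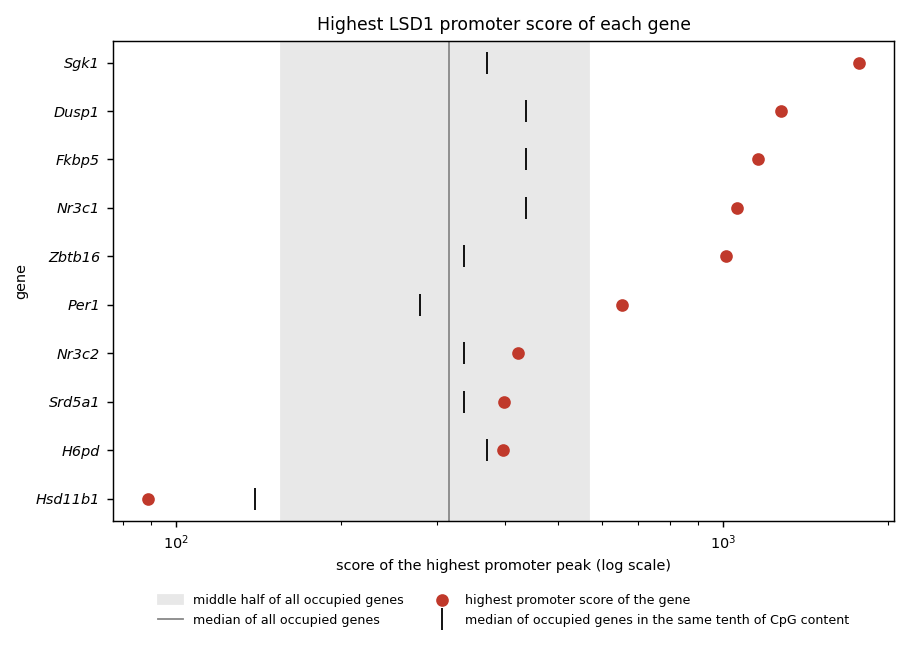
Score of the highest LSD1 promoter peak of each gene (horizontal log axis, 1 red point per gene, 1 library), with a black tick at the median of occupied genes in the same class of promoter CpG content, a grey line at the median of all 12199 occupied genes (315) and a grey band between their quartiles, 156 and 569.8. 6 genes lie right of the band, and Hsd11b1 at 89.1 lies left of it.

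Hsd11b1 (ENSMUSG00000016194.14, mm10 chromosome 1, 193221634–193264075, minus strand) had the lowest promoter score of the set. Its promoter peak at chr1:193242022-193242742 was 721 bp wide and stood at percentile 28.9 of all scores. It covered an annotated start at 193242629, with the midpoint 247 bp downstream of it, and the starts at 193241598 and 193243561 lay within 1 kb. The start at the upstream end of the gene record, 21446 bp before the one covered, had no promoter peak. Within the gene, 3 further peaks scored 174 (chr1:193226571-193227542), 119 (chr1:193233005-193233658) and 92.0 (chr1:193255510-193256049), all intronic. The 3 highest peaks of the whole window lay outside the gene and nearer to a neighbour. They scored 487 and 311 on the 3′ side, towards Traf3ip3 and A130010J15Rik, and 175 on the 5′ side, towards Lamb3, whose annotated record overlaps Hsd11b1. In all, 12 peaks lay in the window, 4 of them nearest to an Hsd11b1 start and 8 nearest to another gene.

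The Hsd11b1 and Sgk1 promoter peaks, the lowest and highest of the set, are shown as the ends of the range of scores. The 300 bases around each peak midpoint are shown with CG dinucleotides in capitals, on the plus strand of mm10, and the intronic Hsd11b1 peak with the gene's highest score is shown for comparison. The midpoint is not a summit, which the list does not give. Sgk1 was added to the display after the values were seen. The first sequence is chr1:193242232-193242531, the second is chr1:193226907-193227206 and the third is chr10:21994423-21994722.
Hsd11b1 promoter peak: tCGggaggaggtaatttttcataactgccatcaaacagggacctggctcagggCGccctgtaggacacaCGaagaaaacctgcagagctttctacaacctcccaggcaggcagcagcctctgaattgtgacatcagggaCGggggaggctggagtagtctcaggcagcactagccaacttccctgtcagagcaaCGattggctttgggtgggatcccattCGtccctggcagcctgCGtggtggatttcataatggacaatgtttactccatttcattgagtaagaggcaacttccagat
Hsd11b1 intronic peak: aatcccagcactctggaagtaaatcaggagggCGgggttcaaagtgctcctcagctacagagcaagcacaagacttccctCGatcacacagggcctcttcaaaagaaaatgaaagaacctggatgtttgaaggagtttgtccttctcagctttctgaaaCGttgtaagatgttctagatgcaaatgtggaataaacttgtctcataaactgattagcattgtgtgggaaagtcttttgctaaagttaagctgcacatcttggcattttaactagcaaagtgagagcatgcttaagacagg
Sgk1 promoter peak: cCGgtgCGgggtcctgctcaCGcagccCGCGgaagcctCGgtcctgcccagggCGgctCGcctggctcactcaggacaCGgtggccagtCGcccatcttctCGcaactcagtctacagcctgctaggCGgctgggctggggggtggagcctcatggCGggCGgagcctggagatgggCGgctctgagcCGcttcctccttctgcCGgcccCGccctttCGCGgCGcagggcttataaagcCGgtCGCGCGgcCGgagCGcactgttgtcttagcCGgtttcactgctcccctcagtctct
The Hsd11b1 promoter window held 7 CG dinucleotides (GC content 52.7%) and the intronic window 3 (42.7%), against 28 in the Sgk1 window (69.3%). The observed over expected CpG ratio was 0.337 and 0.222 at Hsd11b1 and 0.777 at Sgk1, beside medians of 0.710 for all peaks that overlap a promoter and 0.193 for all that do not. In this measure the Hsd11b1 promoter peak was nearer to the peaks away from promoters, as were 6 of the 17 promoter peaks of the set, itself included. Low CpG content around the midpoint did not go with a low score throughout. The Fkbp5 peak of score 1161 had the lowest ratio of the 17, 0.0391, and the others were peaks of H6pd (129), Per1 (478) and Sgk1 (222 and 111). The Fkbp5 peak was 3400 bp wide, with its midpoint 1605 bp upstream of the start. In the 1 kb around that start the ratio was 0.331.

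H6pd (chromosome 4, 149979475–150009023, minus strand), which supplies the NADPH for the Hsd11b1 enzyme, had 2 promoter peaks. The peak at chr4:150008486-150009551 scored 395 with the midpoint 4 bp from the start, and a weaker one just upstream at chr4:150009989-150010723 scored 129. The highest peak nearest to H6pd was at the other end of the gene. It spanned 2484 bp at chr4:149977790-149980273 across the 3′ end of the record and scored 869.9, more than both promoter peaks. Further peaks upstream of the start and in an intron scored 238 (chr4:150011691-150012994) and 289 (chr4:149990214-149991376). Of 23 peaks in the window 11 were nearest to H6pd, and the window's highest peak (894) was at the promoter of Spsb1, which encodes an adaptor of a ubiquitin ligase. The third highest scored 441 (chr4:150047690-150049208) and lay upstream, nearest to Gpr157.

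Srd5a1 (chromosome 13, 69573449–69611442, minus strand) encodes a steroid reductase that inactivates glucocorticoids and converts testosterone. Its only peak was the promoter peak at chr13:69610682-69612192, with a score of 397 and the midpoint 5 bp from the start, and the rest of the gene held none. That peak also overlapped the promoter region of Nsun2, an RNA methyltransferase gene, so the 2 genes share it. The other 5 peaks of the window were nearer to Nsun2 or Tent4a, with the highest at 669 (chr13:69540952-69543752) and the next at 275 (chr13:69534236-69535541).

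The glucocorticoid receptor gene Nr3c1 (chromosome 18, 39410545–39519421, minus strand) carried 1 wide promoter peak and little else. The peak at chr18:39489176-39491684 spanned 2509 bp, scored 1059.7 and covered 6 of the 9 annotated starts, which form a CpG-rich cluster inside the gene record. The 4 other peaks nearest to Nr3c1 scored between 78.7 and 128, and the next highest of the window (367 and 150.4) lay past the 3′ end, nearer to Arhgap26. The mineralocorticoid receptor gene Nr3c2 (chromosome 8, 76899442–77245012, plus strand) is the longest of the set and had the fewest peaks per length. Its promoter peaks at chr8:76898498-76900097 and chr8:76900490-76901780 scored 421 and 230.4. A single intronic peak scored 87.6, and 1 peak past the gene, nearest to Arhgap10, scored 120.4. Nr3c1 had 7 peaks in its window (3.35 per 100 kb) and Nr3c2 had 4 (0.898 per 100 kb).

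Fkbp5, which encodes a co-chaperone that lowers the hormone affinity of the receptor and is itself induced by it, had the most peaks of its own in the set (chromosome 17, 28399094–28517527, minus strand). Of 22 peaks in the window, 17 were nearest to Fkbp5 and 15 had the midpoint in an intron. The promoter peak at the upstream end of the record, chr17:28517429-28520828, spanned 3400 bp, wider than 99.9% of all peaks, and scored 1161. A second peak, chr17:28522178-28523749, lay 5440 bp upstream of the nearest start and scored 1142, and the peak over the internal CpG-rich starts, chr17:28484517-28486774, scored 949. The midpoint of the second peak lay within the annotated records of E230001N04Rik and Gm20109, and nearest starts were taken from protein-coding transcripts only. The remaining peaks nearest to Fkbp5 scored from 58.2 to 270.01, the highest of them at chr17:28463330-28464155. The wide peak overlapped the promoter region at one of its ends and had the midpoint 1605 bp upstream of the start.

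Per1 (chromosome 11, 69095217–69109960, plus strand), a circadian clock repressor that glucocorticoids induce directly, was the shortest gene and lay in the densest window, with 25 peaks or 21.8 per 100 kb. Its own 5 peaks included promoter peaks at chr11:69094073-69095920 (654) and chr11:69098522-69100346 (478) and an intronic peak between them at chr11:69096680-69097773 (366). The last 2 scored 90.1 and 102. The other 20 peaks were nearest to 8 neighbouring genes, and 2 of them outscored Per1, one near Hes7 (902) and one at the promoter of Borcs6 (668).

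Zbtb16 (chromosome 9, 48654297–48836222, minus strand) encodes PLZF, a zinc finger repressor. Its promoter peak at chr9:48834246-48836362 spanned 2117 bp and scored 1012. Among 13 other peaks nearest to the gene, 12 lay in introns, with the highest at chr9:48732954-48734360 (312) and chr9:48798305-48798944 (296), and the one upstream scored 209.6. The third highest peak of the window, at 299, lay near Nnmt beyond the 3′ end.

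Sgk1 (chromosome 10, 21882184–21999903, plus strand) encodes a kinase that regulates ion transport and cell survival. Every one of its 12 window peaks was nearest to one of its own starts. The 3 promoter peaks stood side by side at the internal starts, at chr10:21993835-21995311 (1772), chr10:21993072-21993752 (222) and chr10:21991669-21992311 (111), while the 3 starts farther upstream had none. The second highest peak of the window, 229.98, lay 48024 bp upstream of the record, with its midpoint within the annotated record of Platr6. Dusp1 (chromosome 17, 26505590–26562128, minus strand) encodes the phosphatase that switches off MAP kinases. Its promoter peak at the internal CpG-rich starts, chr17:26507779-26510346, spanned 2568 bp and scored 1275. A second promoter peak at the upstream end of the record (chr17:26560771-26562059, 231) was shared with Ergic1. The Dusp1 window also held peaks of 669 (chr17:26584046-26585476), nearer to Ergic1, and of 554 (chr17:26503431-26505081), 4216 bp downstream of a Dusp1 start. Its 13 own peaks had a median score of 259, against 128 for the 12 of Sgk1.

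**Figure D2:**
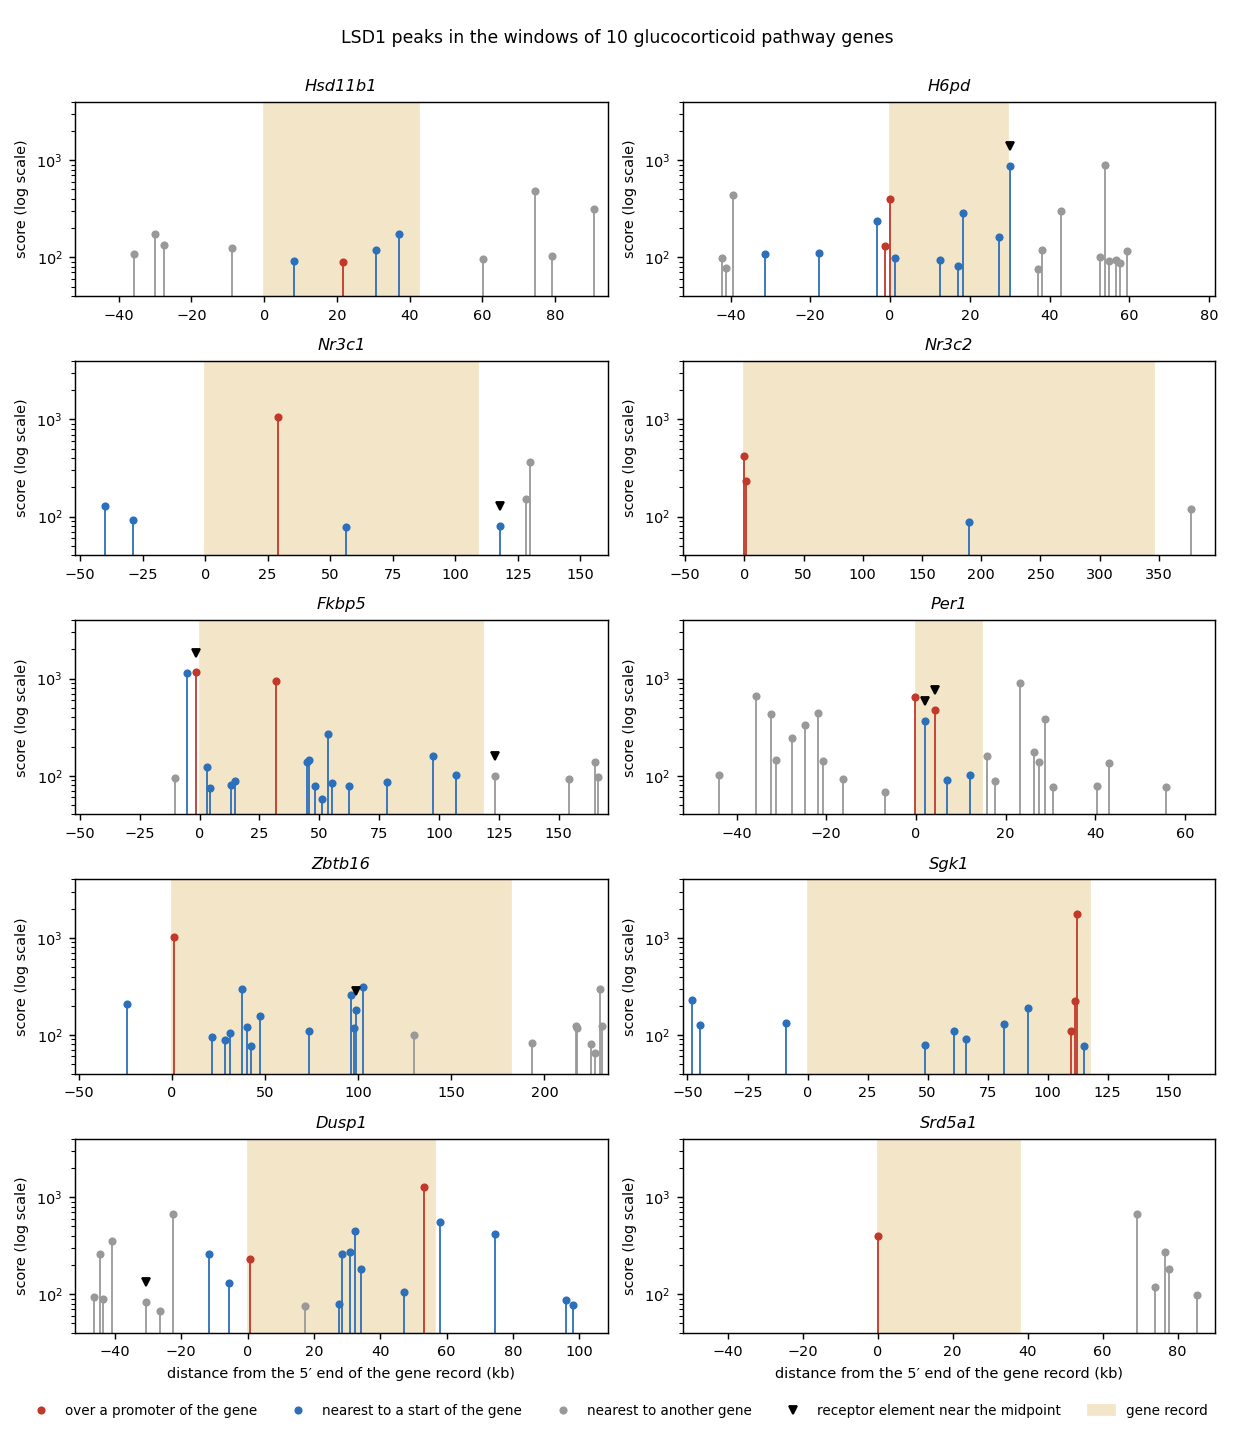
LSD1 peaks in the 50 kb windows of the 10 genes, 1 panel per gene, with distance from the 5′ end of the gene record in kb, in the direction of transcription, on the horizontal axis and the peak score on a log vertical axis. Red peaks overlap a promoter of the gene, blue ones are nearest to one of its starts, grey ones are nearest to another gene, the shaded band is the gene record and black triangles mark a glucocorticoid receptor element within the 300 bp around the midpoint; Sgk1 has no grey peak and Per1 has 20 peaks nearest to other genes.

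Across the 10 windows, 85 of the 155 peaks were nearest to a start of the gene itself and 70 to a neighbour, with only protein-coding starts counted. By midpoint, 59 lay in introns, 7 in exons of any kind, 41 upstream and 48 downstream of the gene record. The windows held 7.55 peaks per 100 kb, against 2.17 over the assembled genome and a median of 3.54 over the windows of all protein-coding genes. Density was above that median for 8 of the 10, with Nr3c1 and Nr3c2 below it. A long gene has more room for peaks of its own, so the count of own peaks is set beside the median of genes in the same class of length, again 1 of 10. H6pd had 11 against 1, Fkbp5 had 17 against 4, Zbtb16 had 14 against 4, Dusp1 had 13 against 2 and Sgk1 had 12 against 4. Per1 had 5 against 1, Nr3c1 had 5 against 3 and Hsd11b1 had 4 against 2. Nr3c2 with 3 against 4 and Srd5a1 with 1 against 2 were below. The 17 peaks over promoters of the genes had a median score of 421 and a median width of 1511 bp, against 231 and 912 bp for the 14423 peaks of the list that overlap any promoter. The 69 peaks that were nearest to the genes but off their promoters had a median score of 119 and width of 626 bp, against 102 and 602 bp for the 44752 peaks that overlap none.

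**Figure D3:**
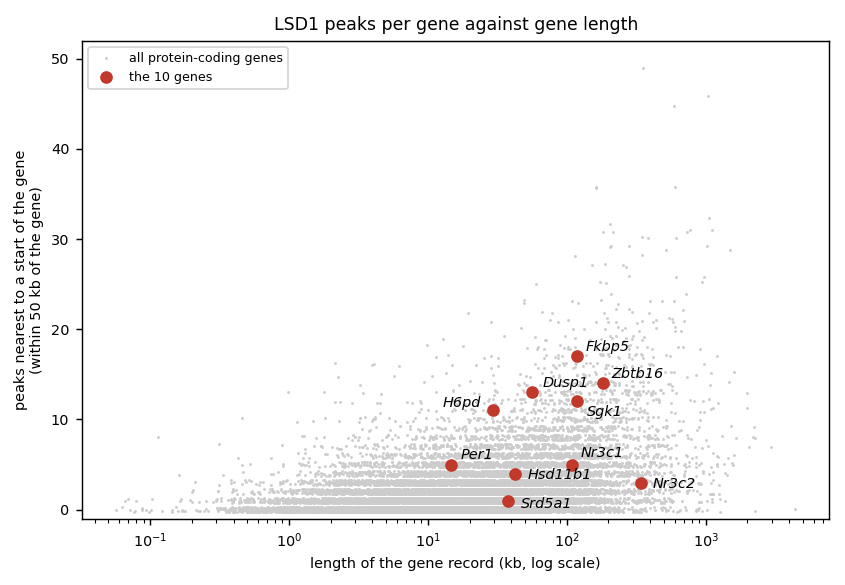
Number of peaks nearest to a start of each gene and within 50 kb of it (vertical axis) against length of the gene record in kb (horizontal log axis), in red for the 10 genes and in grey for all 21853 protein-coding genes, with grey points shifted up or down at random by less than 1 peak. Fkbp5 (17), Zbtb16 (14), Dusp1 (13), Sgk1 (12) and H6pd (11) stand above most genes of their length, and Srd5a1 (1) and Nr3c2 (3) do not.

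The steroid receptors of this pathway bind a palindrome of half-sites, and the peaks were searched for the half-site GNACA, 3 bases, and the half-site TGTNC. Of the 155 peaks, 8 held such a glucocorticoid receptor element in the 300 bp around the midpoint, 5.16% (Wilson 95% interval 2.64 to 9.85%, counting error only), against 0.564% of all peaks and 0.632% of those with the midpoint over 1 kb from any start. Anywhere in the peak, 17 of 155 (10.97%) held one, against 1.46% of all peaks, whose median width was 628 bp beside 690 bp for the 155. Per length, the peaks in the 10 windows held 20 elements in 0.142 Mb, or 141 per Mb. The sequence of the same windows outside peaks held 38, or 19.9 per Mb, all peaks of the list held 19.1 per Mb and the genome outside peaks held 16.9 per Mb. Fkbp5 gave 8 of the 20, and without its window the peaks held 12, or 98.0 per Mb. Zbtb16 gave 3, of which 2 overlapped each other in 1 peak and were counted separately. Per1, H6pd and Dusp1 gave 2 each, and Nr3c1, Sgk1 and Srd5a1 gave 1 each. In the windows of Hsd11b1 and Nr3c2, 3 and 7 elements lay outside peaks and none inside. Several of the response genes are textbook targets of the receptor, the part that this choice of genes plays in the counts was not tested, and peaks of 1 gene share their locus.

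Sequences are shown for the 5 highest-scoring peaks with an element in the 300 bases around the midpoint, on the plus strand of mm10 with the element in capitals. In order, they are the wide upstream peak of Fkbp5 (chr17:28518979-28519278), the peak at the 3′ end of H6pd (chr4:149978882-149979181), the promoter peak (chr11:69099284-69099583) and the intronic peak (chr11:69097077-69097376) of Per1, and an intronic peak of Zbtb16 with a score of 179 (chr9:48737506-48737805).
Fkbp5 upstream peak: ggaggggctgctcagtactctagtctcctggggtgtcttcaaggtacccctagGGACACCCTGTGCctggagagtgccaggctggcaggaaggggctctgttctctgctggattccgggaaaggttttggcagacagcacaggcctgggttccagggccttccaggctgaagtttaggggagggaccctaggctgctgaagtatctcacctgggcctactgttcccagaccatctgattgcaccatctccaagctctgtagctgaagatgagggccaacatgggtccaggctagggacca
H6pd 3′ end peak: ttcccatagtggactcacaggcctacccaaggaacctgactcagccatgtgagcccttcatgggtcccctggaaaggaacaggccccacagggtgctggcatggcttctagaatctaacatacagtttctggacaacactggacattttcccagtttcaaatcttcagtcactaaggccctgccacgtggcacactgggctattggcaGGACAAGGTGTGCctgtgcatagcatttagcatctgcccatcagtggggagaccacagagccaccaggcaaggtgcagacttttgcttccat
Per1 promoter peak: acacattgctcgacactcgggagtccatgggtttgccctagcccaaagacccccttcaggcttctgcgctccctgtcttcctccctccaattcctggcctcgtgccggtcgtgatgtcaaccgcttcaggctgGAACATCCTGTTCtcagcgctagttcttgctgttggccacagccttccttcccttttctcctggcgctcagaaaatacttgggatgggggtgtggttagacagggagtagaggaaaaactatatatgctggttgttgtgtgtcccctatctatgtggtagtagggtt
Per1 intronic peak: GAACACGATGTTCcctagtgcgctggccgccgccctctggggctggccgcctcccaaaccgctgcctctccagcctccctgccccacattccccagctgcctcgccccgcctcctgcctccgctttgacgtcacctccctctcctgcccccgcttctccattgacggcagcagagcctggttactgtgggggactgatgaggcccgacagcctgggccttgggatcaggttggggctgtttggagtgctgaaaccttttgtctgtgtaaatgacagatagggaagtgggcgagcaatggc
Zbtb16 intronic peak: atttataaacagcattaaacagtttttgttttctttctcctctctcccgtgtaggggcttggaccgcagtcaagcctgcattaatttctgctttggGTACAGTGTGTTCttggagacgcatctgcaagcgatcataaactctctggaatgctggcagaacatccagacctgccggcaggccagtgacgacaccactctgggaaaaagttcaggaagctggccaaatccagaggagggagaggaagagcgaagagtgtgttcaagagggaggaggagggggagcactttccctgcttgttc
Compared with the full palindrome of AGAACA, 3 bases and TGTTCT, both Per1 elements agreed at 11 of 12 positions. The Zbtb16 element agreed at 10, the H6pd element at 9 and the Fkbp5 element at 8. The half-sites searched for already fix 8 of the 12 positions, so 8 is the lowest value an element could have. The element in the Per1 promoter peak lay 11 bp from the midpoint. The other peaks with an element near the midpoint lay past the 3′ end of Fkbp5 and nearer to Tulp1 (99.1), in the Dusp1 window nearer to Ergic1 (83.4) and past the 3′ end of Nr3c1 (80.0).

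The full palindrome was found in 2 of the 155 peaks and in 14 of all 59175 (0.0237%), searched over the whole peak. They are shown because they are the exact receptor consensus, with its 15 bases in capitals within 100 bases of the plus strand, at chr10:21993658-21993757 and chr17:28420278-28420377.
Sgk1 promoter peak with a score of 222: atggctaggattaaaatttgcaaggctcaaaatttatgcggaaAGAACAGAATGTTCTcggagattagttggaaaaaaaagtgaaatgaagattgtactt
Fkbp5 intronic peak with a score of 161: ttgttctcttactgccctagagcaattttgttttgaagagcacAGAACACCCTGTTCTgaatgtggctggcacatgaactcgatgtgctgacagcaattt
Both stretches run past the ends of their peaks, which lie at 21993752 and 28420364. Each element sat near the edge of its peak. The Sgk1 element lay 296 bp from the midpoint, and the Fkbp5 element lay 345 bp from the midpoint of the peak at chr17:28419602-28420364. Neither fell in the 300 bp around the midpoint, where 0 of the 155 peaks held the full palindrome.

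**Figure D4:**
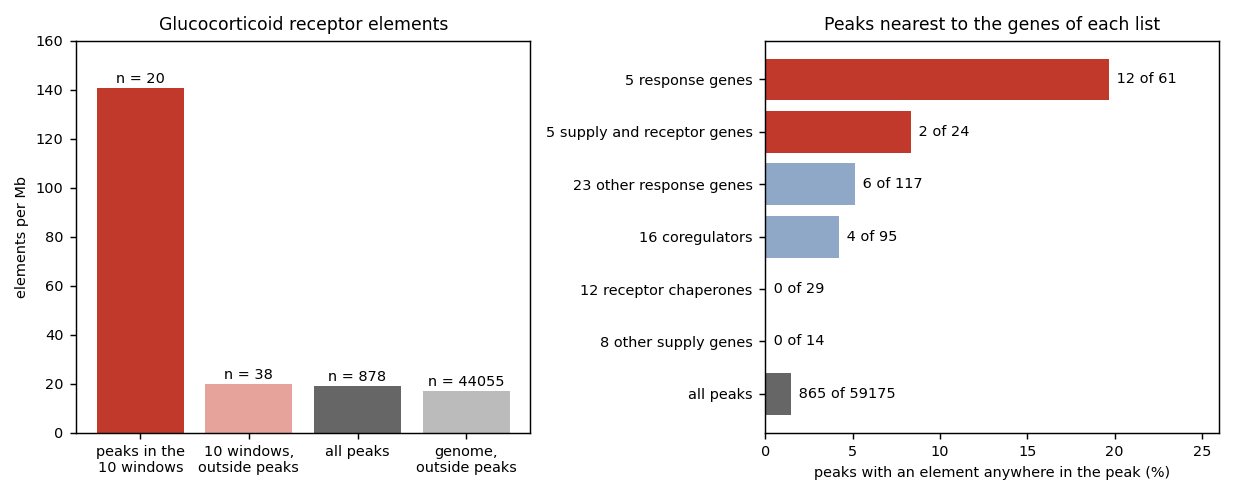
Left, glucocorticoid receptor elements per Mb (bars) in peaks of the 10 windows, the same windows outside peaks, all peaks and the genome outside peaks, with the number of elements above each bar. Right, percent of peaks nearest to the genes of each list that hold an element anywhere in the peak, with counts: 12 of 61 for the 5 response genes and 2 of 24 for the 5 supply and receptor genes, against 865 of all 59175 peaks. Fkbp5 gave more of the 12 than any other response gene.

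Other motifs were searched on both strands in the same 300 bp and are given beside the whole list. The single half-site AGAACA, 1 arm of the full palindrome, was in 44 of the 155 peaks (28.4%), against 21.9% of all peaks. C/EBP proteins drive adipocyte differentiation, and their motif TTGCNNAA was in 27 (17.4%) against 12.5%. The AP-1 motif TGANTCA was in 16 (10.3%) against 13%, and the E-box CACGTG, bound by clock and Myc-family proteins, in 7 (4.52%) against 4.82%, with 2 matches in the Per1 promoter peak. The GC box GGGCGG was in 25 (16.1%) against 17.5%, the ETS motif CCGGAAG in 4 (2.58%) against 3.86% and the cAMP response element TGACGTCA in 3 (1.94%) against 0.629%. One of the 3 was in the intronic Per1 peak that also held a receptor element.

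Further genes of the pathway were described from lists, leaving out the 10 genes, and each count is set beside the 55.8% of all genes with a promoter peak and the mean share in the CpG classes of its genes. Of 8 genes of steroid supply and transport, 4 had a promoter peak (50%, class share 57.5%), led by the glucose-6-phosphate transporter Slc37a4 (555) and the drug exporter Abcb1b (433), while the reductases Srd5a2 and Akr1d1 had none. Hsd11b2, which encodes the opposing enzyme that inactivates glucocorticoids, scored 79.4, beside 89.1 for Hsd11b1, and was picked out after its value was seen. Of 12 receptor chaperones 11 were occupied (91.7%, class share 88.2%), led by the heat shock genes Hsp90ab1 (1270.5) and Dnaja1 (1127), and Cdc37 was not. Of 16 coregulators 14 were occupied (87.5%, class share 91.2%), led by the coactivator Ncoa2 (1531) and the remodeller Smarca4 (1263), and the acetyltransferase Crebbp and Gmeb2 were not. Of 23 further response genes 20 were occupied (87.0%, class share 67.6%), led by the stress gene Ddit4 (1189) and the cell cycle inhibitor Cdkn1a (986). The enzyme genes Pck1 and Tat were among those without a promoter peak. The supply, chaperone and coregulator counts thus lay near the shares of their classes. The median promoter score of the 20 was 507, against 833 for the 10 genes and 315 for all occupied genes.

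Among peaks nearest to the 5 response genes of the set, 4 of 61 held an element in the 300 bp around the midpoint and 12 (19.7%) held one over the whole peak. Fkbp5 gave more of these 12 than any other of the 5 genes, and peaks of the same gene share their locus. Among the 117 peaks nearest to the 23 further response genes, 0 held one around the midpoint and 6 (5.13%) over the whole peak, at Klf9, Klf15, Ddit4, Mt1, Mt2 and Cdkn1a. These groupings were made after the element counts were seen. The share was 4 of 95 for the coregulators, 0 of 29 for the chaperones and 0 of 14 for the supply genes.

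Hsd11b1 was compared among the 11558 genes that had both a promoter peak and a peak nearest to one of their own starts. By gene length, highest promoter score, highest own score and peak density, the genes most like it were Itgb4, Anxa6, Txnrd2, Samd8 and Tmem38b. Their distances over the 4 standardised measures were 0.240, 0.315, 0.318, 0.359 and 0.370, all in the 1 library. Their promoter scores ran from 76.3 to 102. A peak list measures no RNA, so the labelled cell type could not be checked on expression. The adipocyte markers listed were Ucp1, Cidea, Adipoq, Pparg, Prdm16 and Plin1, not all of them particular to brown fat. At the promoter level, 5 of these 6 had a peak (class share 53.5%), with none at Ucp1. Of 5 preadipocyte markers 4 had one (class share 56.98%), with none at Dlk1, beside 55.8% of all genes. The median scores of the occupied markers were 103 and 212, both below the 315 of all occupied genes.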

How the data were processed

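The labels' protocols give Illumina sequencing and alignment by Bowtie2 against mm10. The submitters' processing notes name MACS 1.41. The peak threshold, the Bowtie2 version and any use of the input are not given in the sources used here. For each peak the authors deposited a position and a score. The list gives no counts, so depth is unknown, and no replicates, so no test was made. Genes, starts and sequences came from GENCODE M21 and GRCm38.p6, the assembly of mm10, where 0 peaks passed a chromosome end. Coordinates count from 1. A promoter is 1 kb on either side of any protein-coding start, and a peak counts when it overlaps by 1 bp. CpG content is the highest observed over expected ratio in 1 kb around a start. Motifs were exact matches, with soft-masked repeats included. The named genes are the members, each with its promoter peaks and its 3 highest peaks, and, per pathway list, the 2 highest promoter scores and the first 2 genes without a promoter peak. The members, lists and comparisons were chosen with earlier results of these data known. The search of elements outside peaks, around listed genes and for the full palindrome over whole peaks, and the display of Sgk1, were added after seeing the data. Of the sequences with an element near the midpoint, the 5 with the highest peak scores are shown. Alternatives changed the promoter width, the overlap rule, the starts, the flank, the score threshold and the element. Overlap and motif functions were tested on simulated data. Python 3.11.15 and scipy 1.17.1 were used.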

Additional observations from a re-analysis of the deposited data

How the results depend on the processing

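All 10 genes kept a promoter peak with promoters of 500 or 2500 bp and with the midpoint required inside, 9 did with only peaks at or above the list median or with only the tenth of peaks with the highest scores, and 7 did when the 5′ end of the gene record was the only start. Hsd11b1, Nr3c1 and Sgk1 then had none, and the Dusp1 score was 231. With midpoints inside, the Fkbp5 score was 949. The windows held 86 peaks with flanks of 10 kb, 88 at or above the median score and 25 among the tenth with the highest scores, as fewer bases or peaks were counted. Elements were in 17 peaks over whole peaks, in 0 with the full palindrome near the midpoint and in 2 with it over whole peaks, the last setting chosen after seeing the data. Just inside and outside the promoter border lay H6pd peaks of 129 and 98.3, at 966 and 1091 bp from the start, and at the window border peaks of 124 (Zbtb16) and 335 (Fkbp5). No paired analysis was possible because there is 1 library per group and 1 peak list. Depth is unknown, and a gene without a peak may lie below the authors' threshold.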
